A study of Microhyla fissipes with 12 samples.

Results

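In dorsal muscle of the frog Microhyla fissipes, 18 of 468578 assembled transcripts (unigenes) were chosen as late. In each of them every library of stages 43 and 45 exceeded every library of stages 36 and 40 at least 4-fold. Messenger RNA was profiled at these 4 stages of metamorphosis, called S36, S40, S43 and S45, with 3 libraries each, which the series describes as biological replicates. All tadpoles were fed spirulina powder, no treatment or genotype separates the groups, and the labels do not give the number of animals behind a library. Values are FPKM, in which the fragments mapped to a unigene are divided by its length and by the size of the library.

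Frog metamorphosis is driven by thyroid hormone. In Xenopus, larval muscle fibres of the trunk die while adult fibres form, and thyroid hormone receptors switch sets of target genes on and off in each tissue. The bulk RNA measured here holds all cells of the tissue, and more cells of a type and more RNA per cell cannot be told apart.

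A unigene was taken when its lowest FPKM over the 6 late libraries (S43 and S45) was at least 10 and at least 4 times its highest FPKM over the 6 early libraries (S36 and S40). Of 6072 unigenes with a lowest late FPKM of at least 10, the 18 are 0.296%. The mirror rule, with early and late libraries exchanged, takes 15 unigenes. The 18 were thus chosen by their FPKM in all 12 libraries, and the early-to-late step is described without a test. All 18 entered the tests of the steps that the rule did not use. Gene names were not matched to the IDs in the files used here, so no member is given a gene or a role, and marker genes of muscle or of other cells could not be read.

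All 18 IDs belong to one assembly cluster, Cluster-199519, as do 6071 of the 6072 unigenes with a lowest late FPKM of at least 10, so cluster membership does not set them apart. That cluster holds 48.0% of all unigenes.

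Some libraries stood apart or close together. The S45 libraries of replicates 2 and 3 were the closest pair, with an SD of the log2 ratio of 0.0287 at 1000 FPKM or more. Scaled from their own spread at 10 to 30 FPKM (0.266), the SD would be 0.0247. That scaling takes all spread at low values as sampling noise, which could not be checked without read numbers. The 2 libraries were counted as 1 sample, so S45 has n = 2 in the tests. In the 18 their log2 ratios had a median size of 0.182 and reached 0.975 in Cluster-199519.59238. S36 replicate 3 and S40 replicate 1 were close although their stages differ (0.0553 against 0.0253). At 10 to 30 FPKM, S36 replicate 1 was also slightly nearer to S43 replicate 2 (SD 0.932) than to S36 replicates 3 and 2 (0.984 and 1.04). S43 replicate 2 differed more from S43 replicates 1 and 3 (1.71 and 2.02). At 1000 FPKM or more S36 replicate 1 was nearer to its own stage (0.181 and 0.214, against 0.470 with S43 replicate 2). S43 replicate 3 and S45 replicate 1 listed 135286 and 140066 unigenes at 1 FPKM or more, against 68062 to 107969 in the other libraries. Total FPKM ran from 1219979 to 1688307, and the number of reads is unknown, so no precision from depth is given. Median differences of the 18 are given below with and without pairs of these libraries. The shares of members with a higher mean at S40 or at S45 are given with all libraries only.

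The membership itself depended on single libraries. Without S40 replicate 2 the rule would take 33 unigenes, without S43 replicate 1 it would take 35 and without S45 replicate 1 it would take 29, and without any other single library 20 to 24. It would take 25 without S36 replicate 3 and S40 replicate 1, and 52 without S43 replicate 3 and S45 replicate 1. Without S36 replicate 1 and S43 replicate 2 it would take 27. All 18 stayed in each of these larger sets, because leaving out a library can only loosen the rule. S40 replicate 2 held the highest early value of 9 of the 18, and S45 replicate 1 the lowest late value of 8. Among the other unigenes with a lowest late FPKM of at least 10, these shares were 37.3% and 13.3%. Median-ratio scaling of the libraries gave 16 unigenes, 13 of them among the 18, and quantile normalization gave 7, all among the 18.

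The distance from the thresholds varied. The lowest late FPKM was 4.14 to 14.2 times the highest early FPKM, with a median of 5.41; 4 of the 18 reached 8 times and 7 stayed under 5 times. Just inside the ratio lay Cluster-199519.136175 (22.99 against 5.55, 4.14 times), Cluster-199519.37791 (27.89 against 6.63, 4.21 times) and Cluster-199519.59239 (58.15 against 13.55, 4.29 times). Just outside lay Cluster-199519.55205 (11.11 against 2.78), Cluster-199519.117673 (71.09 against 18.35, 3.87 times) and Cluster-199519.192790 (18.7 against 5, 3.74 times). At the level threshold, Cluster-199519.59427 with a lowest late FPKM of 10.08 and Cluster-199519.38789 with 13.12 were inside, and Cluster-199519.59237 with 9.6 and Cluster-199519.111030 with 9.38 were outside. The boundary therefore ran through a continuous spread of values and not through a gap.

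**Figure D1:**
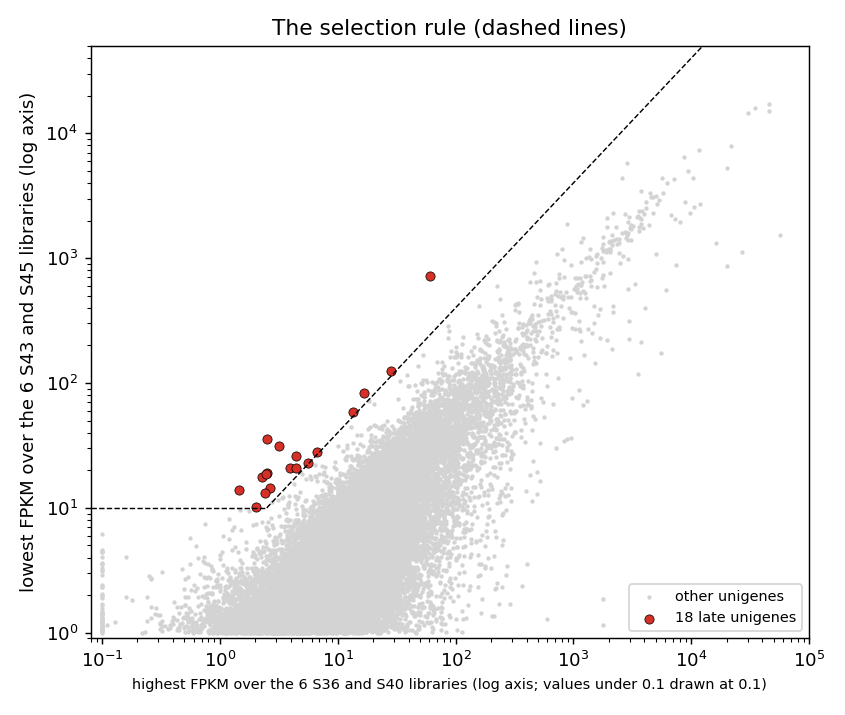
Each point is a unigene with a lowest late FPKM of at least 1; the x axis is its highest FPKM over the 6 S36 and S40 libraries and the y axis its lowest FPKM over the 6 S43 and S45 libraries, both on log axes. The dashed lines are the selection rule and the red points are the 18 late unigenes. Cluster-199519.75953 at 714.45 against 60.72 lies far above the other red points along the y axis.

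The most abundant member was Cluster-199519.75953. Its FPKM was 3.06, 4.47 and 18.1 in the S36 libraries and 15.17, 60.72 and 53.74 in the S40 libraries. The S43 libraries reached 5524.47, 1153.53 and 785.62 and the S45 libraries 714.45, 1858.12 and 1863.32. It therefore went from rank 1589 or below in every early library to rank 24 in S43 replicate 1 and to ranks 63 to 198 in the other late libraries. The S43 and S45 libraries overlapped, and the highest single value was 4.79 times that of the next S43 library.

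The 18 together made up 0.00147% to 0.0122% of total FPKM in the early libraries and 0.11% to 0.876% in the late ones, the highest in S43 replicate 1. In the late libraries Cluster-199519.75953 alone was 30.4% to 61.5% of their sum. Without it the share of the other 17 was highest in S43 replicate 1 at 0.462%, and it was 0.0648% to 0.138% in the other 5 late libraries. The median FPKM of the 18 was 0.14 to 3.21 in the early libraries and 33 to 90.2 in the late ones. These shares describe the choice and are no separate result.

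**Figure D2:**
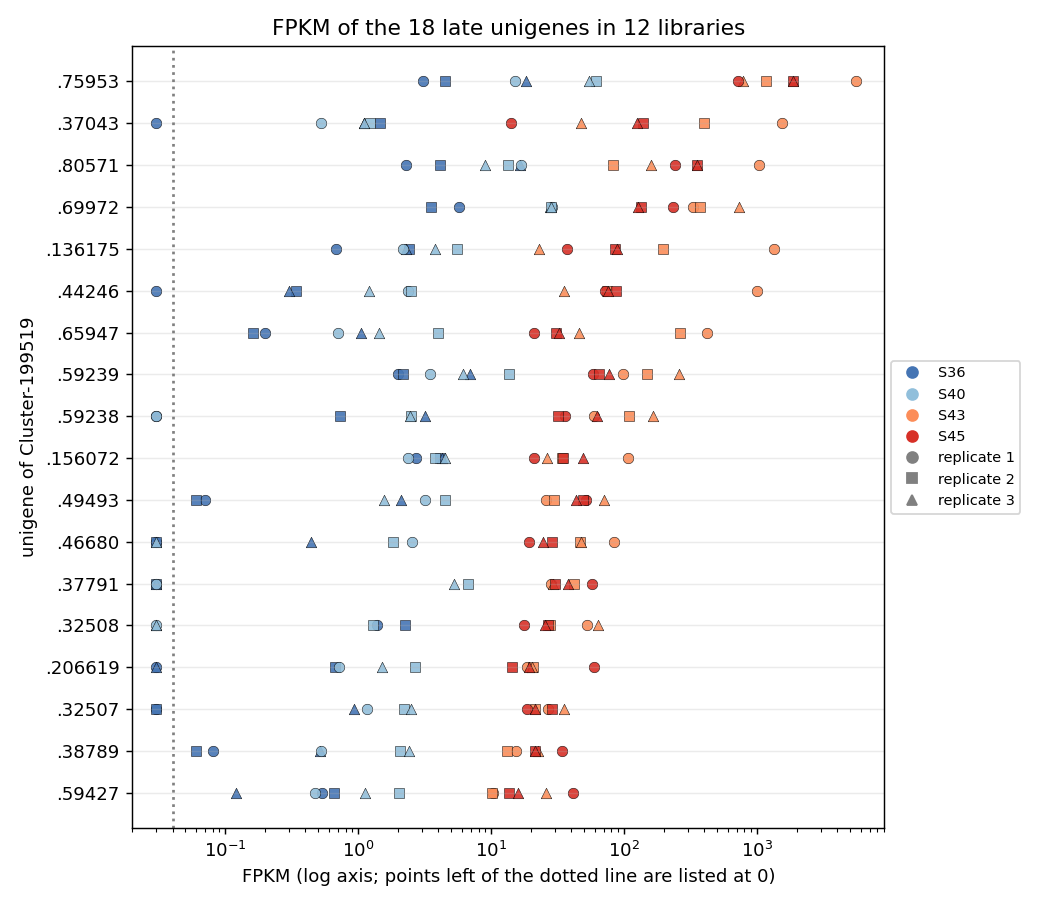
FPKM (x axis, log) of each of the 18 unigenes (rows, ordered by mean late level) in all 12 libraries; colour gives the stage and shape the replicate number. Blue S36 and S40 points lie left of orange S43 and red S45 points in every row by the rule, and points left of the dotted line are listed at 0.

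Within the early stages, S40 values of the members were mostly above those of S36, a step that the rule did not use. On the log2(FPKM + 1) scale, where differences between low values shrink, 16 of the 18 (88.9%) had a higher mean at S40, against 57.3% of all 123813 tested unigenes and 61.2% of those with a lowest late FPKM of at least 10. The median difference of the 18 was 0.99, against 0.09 over all tested unigenes and 0.12 over the other unigenes with a lowest late FPKM of at least 10. With a pseudocount of 0.1 in place of 1 these medians were 1.85, 0.16 and 0.13. Without S36 replicate 1 and S43 replicate 2 the median of the 18 was 0.835, without a computed background. The differences of Cluster-199519.37043 (-0.24) and Cluster-199519.59238 (-0.23) then turned negative. The rule keeps the early values of the 18 well below their late ones, and the comparison groups were not matched to that early level. Whether the 18 rose more than unigenes of like early level was therefore not tested. By limma with Benjamini-Hochberg adjustment over all tested unigenes, none of the 18 was called (adjusted p = 1 for each), a call being a size of at least 1 in log2 with an adjusted p below 0.05; a missed call does not show that the stages were alike. Under either of the scaling alternatives, median-ratio or quantile, 16 of the 18 again had a higher mean at S40, against 49.7% and 47.5% of all tested unigenes and 46.5% and 53.9% of the others with a lowest late FPKM of at least 10. The background of calls in the values as deposited was 0.00162% called higher and 0.00% called lower in all. Without adjustment, limma's p was below 0.05 for 6 of the 18, all higher at S40, against 3.14% of all tested unigenes in either direction.

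In 5 of the 18 (27.8%) every S40 library lay above every S36 library, against 6.21% of all tested unigenes and 9.96% of those with a lowest late FPKM of at least 10. In none did every S40 library lie below every S36 library, against 2.07% of all tested and 3.38% of those with a lowest late FPKM of at least 10. The 5 were Cluster-199519.69972, Cluster-199519.44246, Cluster-199519.206619, Cluster-199519.32507 and Cluster-199519.38789. For Cluster-199519.69972 the S36 libraries had 5.69, 3.49 and 27.53 FPKM and the S40 libraries 28.38, 28.01 and 28.24. The S40 values of Cluster-199519.69972 were nearly equal, and S36 replicate 3 lay just below them while the other S36 libraries were far lower (log2 difference 1.62 ± 0.61 SE, limma adjusted p = 1). For Cluster-199519.44246 the values were 0, 0.34 and 0.3 at S36 and 2.34, 2.5 and 1.21 at S40, all S40 libraries above all S36 libraries. For Cluster-199519.32507 they were 0, 0 and 0.92 at S36 and 1.17, 2.2 and 2.48 at S40. The S36 values of Cluster-199519.44246 and Cluster-199519.32507 were all under 1 FPKM, near the lower end of what the table lists. For Cluster-199519.206619 the values were 0, 0.67 and 0 at S36 and 0.71, 2.67 and 1.5 at S40. For Cluster-199519.38789 they were 0.08, 0.06 and 0.51 at S36 and 0.52, 2.05 and 2.4 at S40. In both, S40 replicate 1 lay only just above the highest S36 library.

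On the log2(FPKM + 1) scale, which favours abundant unigenes, the largest early difference was that of Cluster-199519.75953, with a mean of 8.54 ± 8.31 FPKM at S36 and 43.2 ± 24.5 at S40 (SD, n = 3 each), 5.06-fold higher (log2 difference 2.34 ± 0.82 SE, limma adjusted p = 1). With a pseudocount of 0.1 other members exceeded its 2.52. The largest was Cluster-199519.37791 with 3.93, and others were Cluster-199519.32507 with 3.18 and Cluster-199519.44246 with 2.96. The stages of Cluster-199519.75953 overlapped, since S36 replicate 3 at 18.1 exceeded S40 replicate 1 at 15.17. Cluster-199519.37791 stood at a listed 0 in every S36 library and in S40 replicate 1 and at 6.63 and 5.2 in S40 replicates 2 and 3, so it was read from 2 early libraries only (limma adjusted p = 1). Lower means at S40 were seen in Cluster-199519.32508, with 1.39, 2.26 and 0 at S36 and 0, 1.28 and 0 at S40, and in Cluster-199519.156072, with 2.73, 4.12 and 4.22 at S36 and 2.38, 3.74 and 4.47 at S40. The log2 differences were -0.59 ± 0.55 SE and -0.06 ± 0.53 SE, and both stages overlapped in each.

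Zero values followed the same direction, being part of the same early values and no separate result. Of the 54 S36 values of the 18 unigenes 13 were listed at 0 and 30 were under 1 FPKM, and of the 54 S40 values 5 were at 0 and 10 under 1. Where a catalogue is assembled from reads, a listed 0 may mean that no estimate was made. All 18 reached 1 FPKM in S40 replicate 2, 16 in S40 replicate 3 and 10 in S40 replicate 1, against 6, 8 and 10 in S36 replicates 1, 2 and 3. The early values were thus highest in S40 replicates 2 and 3, while S40 replicate 1 stood at the level of S36 replicate 3, the library it resembles across the whole table. For the 18 these 2 libraries differed by a median of 0.328 on the log2(FPKM + 1) scale. Without either of them alone, 10 of the 18 had every S40 library above every S36 library (background then 13.4% of all tested without S36 replicate 3 and 12.6% without S40 replicate 1, and 28.1% and 19.0% of those with a lowest late FPKM of at least 10). Without both, 14 of the 18 had every S40 library above every S36 library (background then 19.9% of all tested and 34.5% of those with a lowest late FPKM of at least 10) and the median difference was 1.47, without a computed background. Of the S36 libraries replicate 3 had the highest median FPKM of the 18 (1.07), and of the S40 libraries replicate 1 the lowest (1.675). Leaving them out therefore favours separation. Without S36 replicates 1 and 2 and S40 replicates 2 and 3 in turn, the count was 5, 5, 5 and 7. Backgrounds were then 13.3%, 13.1%, 11.1% and 18.2% of those with a lowest late FPKM of at least 10. With all 12 libraries, median-ratio scaling lowered the 5 without overlap to 2 (background then 4.63% and 6.49%).

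**Figure D3:**
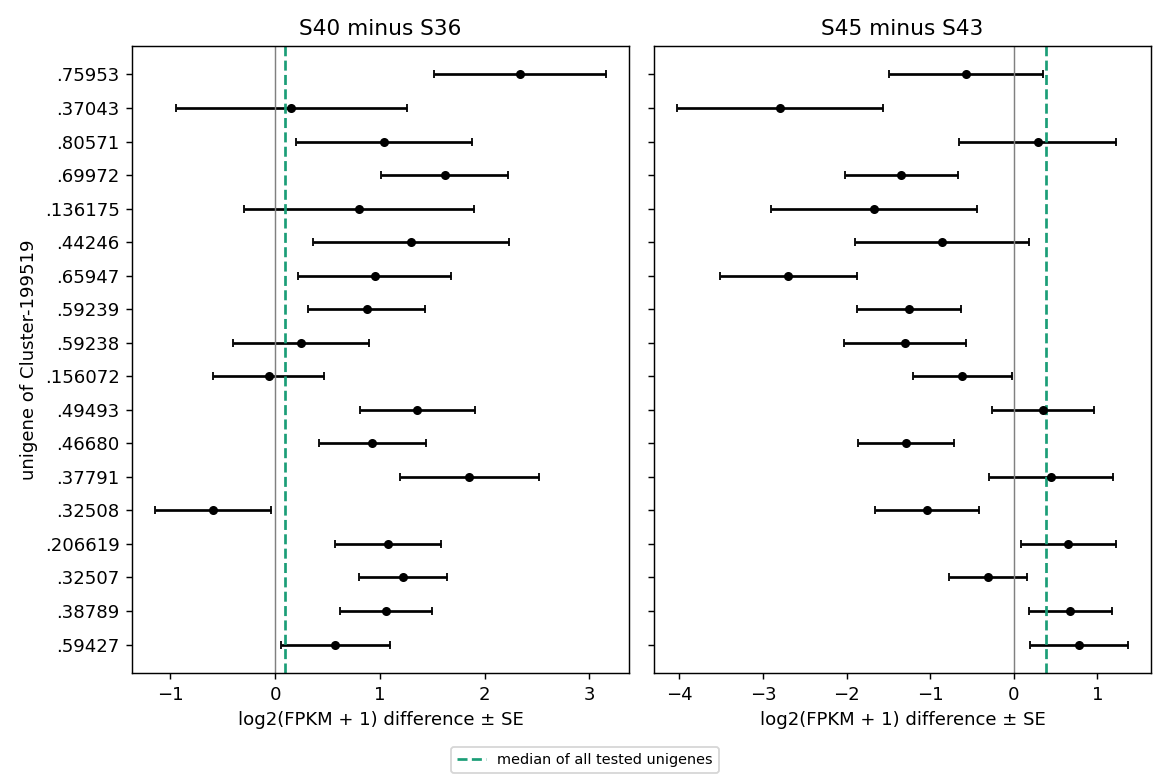
Log2(FPKM + 1) difference with its SE from limma for each of the 18 unigenes (rows), S40 minus S36 on the left and S45 minus S43 on the right; the dashed line is the median of all tested unigenes (0.09 and 0.38). On the left 16 points lie above 0, on the right 12 lie below 0, and no single unigene passed the adjusted test.

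Within the late stages, the members mostly had lower means at S45 than at S43, while most tested unigenes had a higher mean at S45 as deposited. After median-ratio scaling 51.65% of all tested unigenes had a higher mean at S45, and after quantile normalization 46.47%. As deposited, the log2 difference was negative for 12 of the 18 and positive for 6 (33.3%). Positive shares were 68.6% among all tested unigenes and 46.3% among those with a lowest late FPKM of at least 10. The median was -0.74 for the 18, 0.38 for all tested unigenes and -0.04 for the other unigenes with a lowest late FPKM of at least 10. None of the 18 was called by limma with Benjamini-Hochberg adjustment (adjusted p 0.134 to 0.926); the background was 0.884% called higher and 0.0436% called lower, and among unigenes with a lowest late FPKM of at least 10 it was 0.115% and 0.0329%. Without adjustment, limma's p was below 0.05 for 3 of the 18, a share near the 15.5% of all tested unigenes in either direction. The 3 were Cluster-199519.65947, Cluster-199519.37043 and Cluster-199519.46680, all lower at S45. Median-ratio scaling moved the median of all tested unigenes from 0.38 to 0.03 and quantile normalization to -0.05. Relative to the other unigenes with a lowest late FPKM of at least 10, the median of the 18 differed by -0.69 as deposited, by -0.70 after the former and by -0.64 after the latter, but the share of negative differences did not stand apart after scaling. It was 66.7% of the 18 against 53.7% of those others as deposited, 83.3% against 83.0% after median-ratio scaling and 66.7% against 61.6% after quantile normalization.

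In 5 of the 18 (27.8%) every S45 library lay below every S43 library, against 2.47% of all tested unigenes and 12.5% of those with a lowest late FPKM of at least 10. The 5 were Cluster-199519.65947, Cluster-199519.69972, Cluster-199519.59239, Cluster-199519.46680 and Cluster-199519.32508. In none did every S45 library lie above every S43 library, against 16.9% and 8.47%. Without S43 replicates 1, 2 and 3 in turn, every S45 library lay below in 6, 5 and 7 of the 18, against 22.2%, 21.4% and 18.6% of those with a lowest late FPKM of at least 10. Every S45 library then lay above in 1, 1 and 3 of the 18, against 13.2%, 12.1% and 26.2%. Over all tested unigenes the shares below were 6.53%, 5.42% and 5.21%, and those above 21.4%, 22.0% and 29.3%. Without S45 replicate 1, the S45 libraries lay below in 5, against 19.6%, and above in 0, against 12.3%. Without S43 replicate 3 and S45 replicate 1, they lay below in 7, against 25.5%, and above in 3, against 30.2%. Over all tested unigenes the shares were 5.21% and 24.9% without S45 replicate 1, and 8.58% and 38.1% without both. The median log2 difference of the 18 was -0.498 and -0.532 in these 2 settings. The library counts here keep S45 replicates 2 and 3 apart, although the tests count them as 1 sample. In these 2 settings S45 therefore rests on 1 sample. Median-ratio scaling divides the S45 libraries by 1.33 to 1.35 and those of S43 by 0.787 to 1.02. With it, every S45 library lay below in 7 of the 18. The share among unigenes with a lowest late FPKM of at least 10 then rose to 44.8%, above the 38.9% of the 18. Over all tested unigenes it was 7.34%.

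The largest of these was Cluster-199519.65947, with 415.81, 261.9 and 45.84 FPKM at S43 and 20.98, 30.35 and 32.15 at S45, after 0.2, 0.16 and 1.04 at S36 and 0.7, 3.95 and 1.43 at S40. Its S45 libraries lay close together below the lowest S43 library, which was replicate 3. Mean FPKM was 241 ± 186 at S43 (SD, n = 3) and 26.1 ± 7.26 at S45 (n = 2), 9.24-fold higher at S43 (log2 difference of S45 minus S43 -2.70 ± 0.82 SE, limma adjusted p = 0.134). Without S43 replicate 3 it was called (-3.64, limma adjusted p = 0.0107), and so was Cluster-199519.37043 (-4.14, limma adjusted p = 0.0372), which makes 2 of the 18. The background rose in that setting as well, to 0.172% called lower and 6.24% called higher of all tested, and to 0.56% and 4.35% of those with a lowest late FPKM of at least 10. The other alternatives called none of the 18.

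For Cluster-199519.37043 the S43 libraries had 1541.7, 397.67 and 47.3 FPKM and the S45 libraries 13.97, 137.66 and 125.34, with no early library above 1.46. Its late values spanned 110-fold, the widest range of the 18, and the stages overlapped because S43 replicate 3 lay between S45 replicate 1 and the other S45 libraries (log2 difference -2.80 ± 1.23 SE, limma adjusted p = 0.305). For Cluster-199519.46680 the values were 83.58, 46.05 and 47.43 at S43 and 19.12, 28.77 and 24.64 at S45, without overlap (log2 difference -1.29 ± 0.57 SE, limma adjusted p = 0.308). In the early libraries Cluster-199519.46680 was listed at 0 in S36 replicates 1 and 2 and in S40 replicate 3.

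The late level was uneven between libraries. The CV of the 18 over the 5 late samples had a median of 64.7%, against 37.2% for the other 6054 unigenes with a lowest late FPKM of at least 10. The ratio of highest to lowest late library ran from 1.88 to 110, with a median of 4.75 against 2.62 for those others. It exceeded 10 in 5 of the 18 and stayed under 3 in 4. Each member had its highest late value in S43 replicate 1 (44.4% of the 18), S43 replicate 3 (33.3%) or S45 replicate 1 (22.2%). Among the other unigenes with a lowest late FPKM of at least 10 these shares were 24.4%, 30.5% and 11.6%. The remaining ones of those others peaked in the other late libraries. The share in S43 replicate 3 was thus near that of the others. The rule acted on the late values themselves, so these shares and the CVs and ranges above are partly set by it and are no test. The members are described below in these groups, which were formed after their values were seen.

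Highest in S43 replicate 1 were 8 members, Cluster-199519.75953, Cluster-199519.37043, Cluster-199519.80571, Cluster-199519.136175, Cluster-199519.44246, Cluster-199519.65947, Cluster-199519.156072 and Cluster-199519.46680. In 6 of them S43 replicate 1 was at least 3 times the next S43 library. This is 33.3% of the 18, against 2.44% of the other unigenes with a lowest late FPKM of at least 10. The rule acted on these values and those others were not matched in early level, so this contrast is no test. A peak in S43 replicate 1 was not particular to members. The unigenes named just outside the ratio also peaked there, Cluster-199519.55205 at 121.98, Cluster-199519.117673 at 520.78 and Cluster-199519.192790 at 154.82. Their next S43 values were 14.35, 244.99 and 122.3. Just outside the level threshold, Cluster-199519.59237 peaked in S43 replicate 3 and Cluster-199519.111030 in S45 replicate 3. For Cluster-199519.136175 the S43 libraries had 1326.79, 193.85 and 22.99 FPKM and the S45 libraries 37.06, 84.77 and 88.22. For Cluster-199519.44246 they had 993.7, 74.61 and 35.46, and 71.21, 86.25 and 75.84. Both unigenes had their lowest late value in S43 replicate 3, so the S43 libraries enclosed those of S45. The early values of Cluster-199519.136175 were 0.68, 2.42 and 2.29 at S36 and 2.18, 5.55 and 3.79 at S40.

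The excess in S43 replicate 1 was 13.3-fold over the next S43 library for Cluster-199519.44246, 6.84-fold for Cluster-199519.136175, 6.44-fold for Cluster-199519.80571 and 3.16-fold for Cluster-199519.156072. For Cluster-199519.80571 the values were 1024.55, 82.39 and 159.15 at S43 and 240.43, 348.91 and 354.64 at S45, and the early libraries had 2.29, 4.11 and 16.33 at S36 and 16.7, 13.3 and 8.97 at S40. It was the only one of these 8 with a positive log2 difference of S45 minus S43 (0.29 ± 0.94 SE, limma adjusted p = 0.926). For Cluster-199519.156072 the values were 107.32, 34.01 and 26.2 at S43 and 21.02, 34.59 and 48.47 at S45. In all 8 of these unigenes, a group formed on late values, S45 replicate 1 had the lowest of the S45 values. Over all 18 it was the lowest in 11 and the highest in 6, against 38.9% and 50.5% of the other unigenes with a lowest late FPKM of at least 10. Without S43 replicate 1 the median log2 difference of the 18 between S45 and S43 went from -0.74 to -0.13. The differences of Cluster-199519.75953 and Cluster-199519.44246 then turned positive (0.28 and 0.55). Without S36 replicate 1 and S43 replicate 2 that median was -1.055. What sets S43 replicate 1 apart was not tested. It listed the fewest unigenes at 1 FPKM or more, 68062, but S36 replicate 1 with 68885 and S40 replicate 3 with 70032 were close.

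Highest in S43 replicate 3 were 6 members, Cluster-199519.69972, Cluster-199519.59239, Cluster-199519.59238, Cluster-199519.49493, Cluster-199519.32508 and Cluster-199519.32507, with a late range of 1.88-fold to 5.76-fold. For Cluster-199519.69972 the values were 328.06, 368.06 and 723.93 at S43 and 233.09, 133.69 and 125.77 at S45, without overlap (log2 difference -1.35 ± 0.68 SE, limma adjusted p = 0.378). For Cluster-199519.59239 they were 96.83, 147.36 and 256.11 at S43 and 58.15, 63.96 and 76.01 at S45, also without overlap, after 1.98, 2.15 and 6.88 at S36 and 3.44, 13.55 and 6.07 at S40. For Cluster-199519.59238 they were 59.11, 108.27 and 164.07 at S43 and 35.51, 31.43 and 61.8 at S45, where S45 replicate 3 overlapped S43 replicate 1. Its early libraries had 0, 0.73 and 3.18 at S36 and 0, 2.5 and 2.45 at S40, with no order between the stages.

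The IDs Cluster-199519.59238 and Cluster-199519.59239 are consecutive, and Cluster-199519.59237 lies just outside the level threshold with 20.93, 32.67 and 57.95 at S43 and 15.43, 9.6 and 11.4 at S45. In all 3 of these consecutive IDs the S43 replicates stood in the same order. Cluster-199519.69972 and Cluster-199519.49493, without consecutive IDs, had that order too. Over the late libraries Cluster-199519.59239 was 1.23 to 2.03 times Cluster-199519.59238. The other consecutive pair, Cluster-199519.32507 and Cluster-199519.32508, had a ratio of 0.502 to 1.08. For Cluster-199519.32508 the values were 52.72, 27.46 and 63.18 at S43 and 17.63, 26.7 and 25.45 at S45, without overlap, and for Cluster-199519.32507 they were 26.47, 21.15 and 34.93 against 18.59, 28.76 and 21.28. Whether consecutive IDs are pieces or forms of one transcript, between which reads could be split, cannot be read from the table. Counting them as 18 separate transcripts is therefore uncertain.

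The steadiest late level of all 18 was that of Cluster-199519.32507, with a CV of 24.8% over the 5 late samples. Its S43 mean was 27.5 ± 6.95 FPKM (SD, n = 3) and its S45 mean 21.8 ± 4.55 (n = 2), a difference smaller than the SD at S43. The last member of this group, Cluster-199519.49493, had 25.82, 29.6 and 70.79 at S43 and 51.18, 48.8 and 43.13 at S45. These S45 values lay between its S43 values (log2 difference 0.35 ± 0.61 SE, limma adjusted p = 0.843), and its early libraries had 0.07, 0.06 and 2.08 at S36 and 3.17, 4.47 and 1.57 at S40.

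Highest in S45 replicate 1 were the other 4 members, Cluster-199519.37791, Cluster-199519.206619, Cluster-199519.38789 and Cluster-199519.59427, which were also among the less abundant ones, with a mean late FPKM of 20.4 to 37.9. All 4 had a positive log2 difference of S45 minus S43. For Cluster-199519.206619 the values were 18.47, 20.43 and 20.34 at S43 and 58.77, 14.31 and 19.11 at S45, so only S45 replicate 1 exceeded S43 (log2 difference 0.65 ± 0.57 SE, limma adjusted p = 0.643). Without that library the difference was -0.23. For Cluster-199519.59427 they were 10.33, 10.08 and 25.82 at S43 and 41.23, 13.49 and 15.87 at S45, and for Cluster-199519.38789 they were 15.32, 13.12 and 22.44 against 34.22, 21.22 and 21.42. S45 replicate 1 and S43 replicate 3 are the libraries with the most unigenes at 1 FPKM or more. In Cluster-199519.59427 and Cluster-199519.38789 they had the highest values of their stages. In Cluster-199519.37791 and Cluster-199519.206619 S43 replicate 2 was the highest S43 library. For Cluster-199519.37791 the values were 27.89, 41.46 and 28.84 against 57.39, 30.07 and 37.79, a range of 2.06-fold with both stages overlapping.

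**Figure D4:**
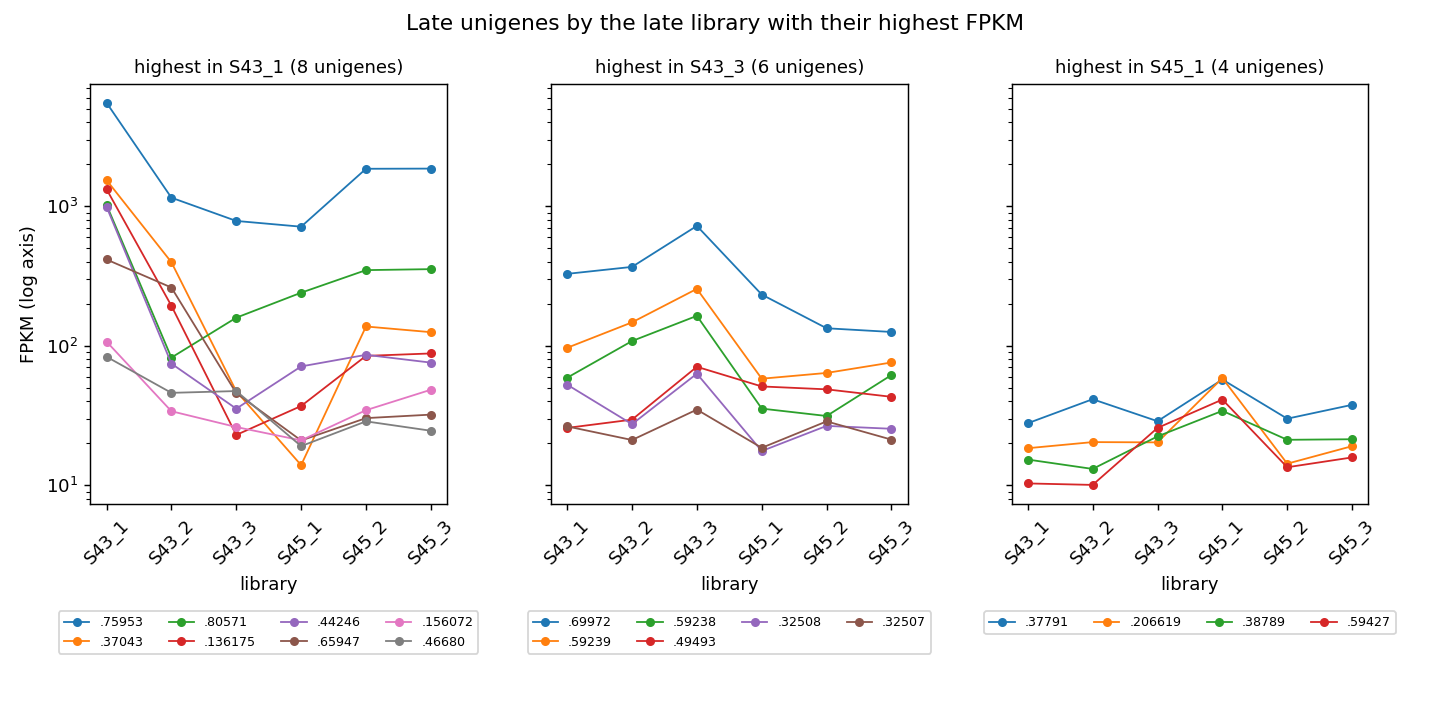
FPKM (log axis) of the 18 unigenes in the 6 late libraries, split by the library that held each one's highest value; lines only join the points of one unigene. The 8 on the left span up to 110-fold with S43_1 on top and S45_1 the lowest of the S45 libraries, while the 6 in the middle and the 4 on the right span at most 5.76-fold.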

How the data were processed

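Poly-A RNA of dorsal muscle was read from both fragment ends on an Illumina sequencer, per the labels' protocols. The authors deposited FPKM rounded to 2 decimals in 12 library columns, all of which were used. How the catalogue was assembled and the reads aligned and counted is not given in the sources used here. Stage and replicate came from the titles. The members, gene groups and tests were chosen with earlier results of these data known.

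The 123813 unigenes that reached 1 FPKM in 3 or more libraries were fitted with limma 3.58.1 (R 4.3.3, package data.table, version 1.17.8) on log2(FPKM + 1), stage as the only term, trended eBayes, S45 replicates 2 and 3 averaged, 11 samples. A call needed a size of at least 1 in log2 and a Benjamini-Hochberg adjusted p below 0.05. No count model was used, since depth is unknown. The p-values reflect only how these libraries vary, part of which may be technical. The named-unigene rule took the 10 most abundant members, 5 with the largest ratio, up to 5 called per direction, those next to the thresholds and 3 each with the smallest and largest CV; it left out Cluster-199519.49493, Cluster-199519.46680 and Cluster-199519.206619, named after their values were seen so that all 18 are covered. The fit was tested on simulated data. Alternatives were other pseudocounts, filters, scalings and eBayes settings, a fit of 2 stages, no fold threshold, 12 separate libraries, the replicate block, libraries left out and other thresholds of the selection. Python 3.11.15, numpy 2.4.6, pandas 2.3.3 and matplotlib 3.10.9 were used. No sequences of these unigenes were used here.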

Additional observations from a re-analysis of the deposited data

How the results depend on the processing

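No member was called in either step under the alternatives, except 2 lower at S45 than at S43 without S43 replicate 3 (0 to 2 without single libraries). There 189 of all tested unigenes were called lower and 6851 higher. Settings without S45 replicate 1 leave 1 sample at S45, and their calls are not read. The fit of 2 stages called no unigene of the whole table in either step, so it says nothing about the members. For S45 minus S43, 12 separate libraries gave 5545 called higher and 289 lower in all, and the replicate block 3340 and 160. For S40 minus S36, a pseudocount of 0.1 gave 15 and 2. The number chosen was 7 with quantile normalization, 92 and 4 at a ratio of at least 2 and 8, 29 and 11 at a lowest late FPKM of at least 5 and 20, 52 without S43 replicate 3 and S45 replicate 1, and 20 to 35 without single libraries; the cause was not tested. Alternatives that leave out 2 libraries were chosen after seeing the data. The median log2 difference of S40 minus S36 was 1.85 with a pseudocount of 0.1, against 0.16 over all tested unigenes.

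Some single differences changed sign, none of them called. For S45 minus S43 with median-ratio scaling these were Cluster-199519.49493 (-0.27), Cluster-199519.80571 (-0.34) and Cluster-199519.37791 (-0.17). Without single libraries S45 minus S43 ran from -1.83 to 0.55 for Cluster-199519.44246, -1.13 to 0.28 for Cluster-199519.75953, -0.47 to 1.34 for Cluster-199519.80571 and -0.23 to 0.74 for Cluster-199519.206619. S40 minus S36 then ran from -0.24 to 0.41 for Cluster-199519.37043, -0.22 to 0.14 for Cluster-199519.156072 and -0.23 to 0.85 for Cluster-199519.59238. Without S43 replicate 3 and S45 replicate 1, S45 minus S43 was 0 for Cluster-199519.37791, -0.21 for Cluster-199519.206619 and 0.08 for Cluster-199519.32507. Without S36 replicate 1 and S43 replicate 2 it was -0.47 for Cluster-199519.80571, and S40 minus S36 was -0.24 for Cluster-199519.37043 and -0.23 for Cluster-199519.59238. Without S36 replicate 3 and S40 replicate 1, S40 minus S36 was 0.22 for Cluster-199519.156072.

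Replicate numbers gave no clear sign of pairing: the deviations of same-numbered S43 and S45 libraries correlated at -0.118, 0.0673 and -0.127, and those of S36 and S40 at 0.0366, 0.119 and -0.0481. Differently numbered libraries ran from -0.144 to 0.203 for S43 and S45 and from -0.143 to 0.109 for S36 and S40. Deviations from a mean of 3 libraries are tied to each other, so these values cannot settle whether samples were paired. With the replicate block in a fit of 12 separate libraries no member was called, and the median difference was -0.652 for S45 minus S43 and 0.994 for S40 minus S36.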
